A study of Mus musculus with 2 samples.

Results

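The genes described here encode the proteasome, the cell's main protease for proteins tagged with ubiquitin. Every gene whose symbol begins with Psma, Psmb, Psmc, Psmd, Psme or Psmf was taken, except for 2 inducible catalytic subunits that were not analysed here. That gave 44 of the 27998 genes listed, and 43 of them had at least 50 UMIs (unique molecular identifiers, tags that count captured RNA molecules) in the cells of both libraries together. The gene below that limit was Psmb11, the thymic catalytic subunit, with 1 WT and 0 IL31RAKO UMIs. Psmc3ip was taken for its name only, since it encodes a recombination factor and no proteasome subunit. The naming rule used no measured expression value except the limit of 50 UMIs, but it was set with earlier results of these data known.

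The cells were live CD45+ leukocytes sorted from dorsal skin of C57Bl/6 mice after house dust mite (HDM) dermatitis, and they were profiled with a droplet 3′ single-cell kit. The WT group and the IL31RAKO group, which lacks the alpha chain of the receptor for the itch cytokine IL-31, were treated alike. Over 3 weeks, shaved skin received Biostir HDM ointment at 2 applications per week, and a 2% SDS solution preceded every application. Tissue of 4 mice was pooled in each group and gave 1 library, no group without HDM was used here, and the labels give neither age nor sex. The knockout is not described as restricted to any cell type.

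Since each genotype was 1 library, no test was possible. Every ratio below is IL31RAKO over WT, and the bracketed 95% intervals cover counting error only, with no variation between mice, pools or cells. The libraries held 11934 WT and 14619 IL31RAKO cells with medians of 2918.5 and 3181 UMIs, and 247 cell barcodes occurred in both. Levels are CPM, that is, UMIs summed over the cells named and scaled to a fixed total per library or gate. A 3′ kit counts transcript ends, so CPM was not divided by transcript length, and levels of different genes are set side by side only as listed values. The targeted gene, Il31ra, had 11 WT and 26 IL31RAKO UMIs, and since tags at the transcript's end may fall beyond what was deleted, these counts check nothing.

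The 26S proteasome is a barrel, the 20S core, capped by the 19S regulatory particle. Alpha subunits form the outer rings of the core and gate its entrance, beta subunits form the inner rings and carry the protease sites, and the 19S particle binds ubiquitin, unfolds the substrate with its ATPases and feeds it in. Interferon replaces catalytic subunits by inducible ones and raises the PA28 activator, which changes the peptides that antigen-presenting cells load on MHC class I.

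Promoter sequences were available for 37 of the 44 genes in a RefSeq table (GRCm38.p6) of 250 bases before to 50 after each start, and the 7 without an entry were Psma8, Psmb1, Psmb2, Psmb7, Psmc3, Psmd3 and Psmd7. The next 4 stretches, read 5′ to 3′ on the gene's strand and ending before the annotated transcript, belong to the core subunits that followed the rest of the list most closely across cell types and had an entry (Psma6, Psma3, Psmb5), and to the catalytic subunit Psmb6. Capitals mark CCAAT, the box bound by NF-Y, and TGACNNNGC, the core of the antioxidant response element bound by the factors NRF1 and NRF2, on either strand.
Psma6 (chr12:55383972-55384221, plus strand): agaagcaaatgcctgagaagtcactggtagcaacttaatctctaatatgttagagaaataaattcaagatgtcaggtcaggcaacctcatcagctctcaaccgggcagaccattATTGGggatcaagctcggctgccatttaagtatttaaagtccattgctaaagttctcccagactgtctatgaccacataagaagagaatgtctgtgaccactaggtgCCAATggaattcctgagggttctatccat
Psma3 (chr12:70974373-70974620, plus strand): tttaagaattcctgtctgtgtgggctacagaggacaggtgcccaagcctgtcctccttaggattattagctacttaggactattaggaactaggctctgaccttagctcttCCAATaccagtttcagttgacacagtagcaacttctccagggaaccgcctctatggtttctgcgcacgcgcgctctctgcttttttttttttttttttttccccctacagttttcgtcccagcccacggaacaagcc
Psmb5 (chr14:54618023-54618245, minus strand): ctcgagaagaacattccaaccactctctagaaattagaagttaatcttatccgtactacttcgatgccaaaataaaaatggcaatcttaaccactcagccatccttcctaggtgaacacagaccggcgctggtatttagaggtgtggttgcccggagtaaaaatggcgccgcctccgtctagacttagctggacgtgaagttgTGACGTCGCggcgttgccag
Psmb6 (chr11:70525107-70525356, plus strand): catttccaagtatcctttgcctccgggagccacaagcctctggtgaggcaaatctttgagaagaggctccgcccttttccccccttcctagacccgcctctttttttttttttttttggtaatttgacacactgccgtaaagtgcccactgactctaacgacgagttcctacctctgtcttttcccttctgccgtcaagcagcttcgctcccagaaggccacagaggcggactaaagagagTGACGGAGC
Psma6 held 2 CCAAT boxes and Psma3 held 1, whereas Psmb5 and Psmb6 each held 1 TGACNNNGC close to the start. Over the full window, TGACNNNGC was in 6 of the 37 promoters (16.2%), against 12.5% of all 27025 promoters of the same length. CCAAT was in 14 of 37 (37.8%), against 37.9% of all. GAAANNGAA, a pattern of the interferon response type, was in 5 of 37 (13.5%), against 8.57% of all, among them Psme1 and not Psmb10 or Psme2. Matches of different patterns may overlap, and a match is a description of letters only.

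**Figure D1:**
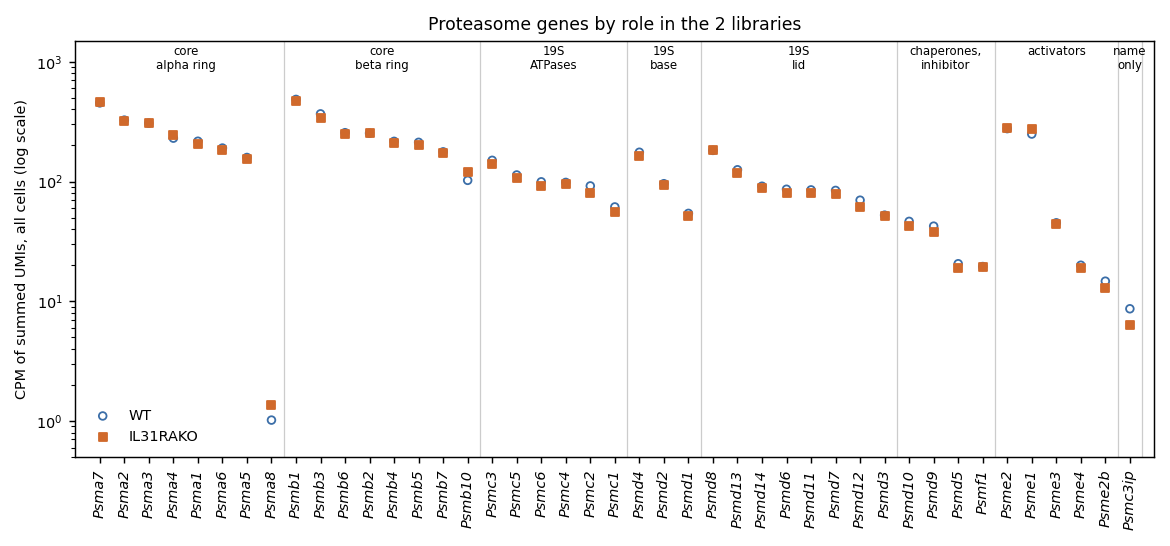
Level of each of the 43 genes over all cells, as CPM of summed UMIs on a log axis, with genes on the horizontal axis grouped by role. Open circles are WT and filled squares IL31RAKO, 1 library each. Core genes such as Psmb1 (485 and 466 CPM) stand far above Psma8 (1.02 and 1.37 CPM), and the 2 symbols of a gene lie farthest apart for Psma8 (log2 ratio 0.43) and Psmc3ip (-0.46).

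Over all cells the proteasome genes made up almost the same share of the RNA in both genotypes. Their summed level was 6415 CPM in WT and 6277 CPM in IL31RAKO, a ratio of 0.978 [0.974, 0.983], from 296601 and 385203 UMIs. Of the 43 genes 8 were higher and 35 lower in IL31RAKO, with a median log2 ratio of -0.06. The median over all 13307 genes with 50 or more UMIs was -0.10, and 33.5% of those genes were higher, so the members' median lay 0.04 above that of all genes. A ratio of at most 0.8, or of at least the inverse of 0.8, is called past the fold limit here, a rule of size. Only 2 members, Psma8 and Psmc3ip, were past the limit, against 31.0% of all genes, and both were among the least abundant.

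In the alpha ring, the 7 common subunits lay between 155 and 462 CPM and their ratios between 0.949 and 1.05. Psma7 was the most abundant, with 454 CPM in WT and 462 CPM in IL31RAKO. Psma4 had the highest ratio of these 7, at 230 and 242 CPM, 1.05 [1.03, 1.08]. Psma8, the testis-type alpha subunit, had 47 and 84 UMIs, and its ratio of 1.35 had an interval of [0.931, 1.97] that includes 1.

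In the beta ring, the 3 constitutive catalytic subunits were slightly lower in IL31RAKO and the inducible one was higher. Psmb5, the chymotrypsin-like subunit, was at 213 and 203 CPM, 0.957 [0.932, 0.983]. Psmb6, the caspase-like subunit, was at 256 and 250 CPM, 0.977 [0.953, 1.0005], an interval that just includes 1. Psmb7, the trypsin-like subunit, was at 177 and 172 CPM, 0.971 [0.943, 0.999]. Psmb10, which takes the place of Psmb7 in the immunoproteasome (mm10 chromosome 8, 105935735 to 105938444), was at 102 and 121 CPM, 1.18 [1.14, 1.23]. The structural subunit Psmb1, which had a UMI in 69.5% of WT and 68.9% of IL31RAKO cells, was at 485 and 466 CPM.

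All 9 subunits of the 19S base were lower in IL31RAKO over all cells, where 33.5% of all genes were higher. The 6 ATPases, which unfold substrates, summed to 615 and 570 CPM, 0.927 [0.913, 0.942], and Psmc2 was the lowest of them at 91.9 and 81.0 CPM, 0.881 [0.846, 0.918]. With the weights of cell types alike in both libraries Psmc4 (1.06), Psmd1 (1.03) and Psmd2 (1.02) were above 1. The 3 non-ATPase base subunits, among them the ubiquitin receptor Psmd4, summed to 326 and 309 CPM. Of the 8 lid subunits 1 was higher and 7 lower. In the lid, Psmd12 was at 69.8 and 61.4 CPM, 0.879 [0.839, 0.922], Psmd14, the deubiquitinase, at 91.4 and 89.1 CPM, and Psmd8 at 182 and 184 CPM.

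The base assembly chaperones Psmd5, Psmd9 and Psmd10 and the inhibitor Psmf1 summed to 129 and 118 CPM. All 4 were lower, where 33.5% of all genes were higher. Among activators, Psme1 (PA28 alpha) was at 249 and 277 CPM, 1.11 [1.09, 1.14]. Its partner Psme2 (PA28 beta) was at 277 and 281 CPM, 1.01 [0.991, 1.04]. The nuclear activators Psme3 (45.2 and 43.9 CPM) and Psme4 (20.0 and 18.9 CPM) had intervals that include 1. Psme2b, a near copy of Psme2 whose reads counting could split, was at 14.7 and 12.8 CPM, 0.871 [0.785, 0.966]. Annotated genes of the count table overlap the span of 14 members, among them Psmb7, Psmb10 and Psme1, always on the other strand for these 3, and whether the counting used strand is not given in the sources used here.

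The mix of cells differed between the libraries, and cells were therefore assigned to types by panels of marker genes. A cell entered a gate when its panel held at least 2 different genes and at least 2 times the share found in free RNA (barcodes of 10 to 50 UMIs), and the panel with the greatest excess took the cell. The macrophage gate held 9.18% of WT and 19.9% of IL31RAKO cells, the neutrophil gate 2.86% and 9.78%, and the lymphoid cells outside the named T gates 12.9% and 4.84%. Several gates were not pure. The regulatory T gate held Foxp3 at 128 and 191 CPM but also Il17a at 1285 and 1114 CPM, the mature dendritic cell (DC) gate held Ccr7 at 458 and 577 CPM but also Cd3g at 601 and 585 CPM. S100a8, a neutrophil gene, was higher in IL31RAKO in all 19 gates, for example 37.6 and 161 CPM in the macrophage gate, and its part in the results was not tested. The untyped cells (29.9% and 26.5%) passed no gate and were a mix. The keratinocyte, fibroblast and endothelial gates go against the CD45+ sort, with Ptprc, the gene for CD45, at 104 and 99.0 CPM in the keratinocyte gate against 568 and 531 CPM in the monocyte gate.

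With the 13 classes that had 100 or more cells in each library weighted alike in both, the list ratio was 1.00, from 6179 and 6197 CPM. Equal weights do not hold the mix alike inside a class. The untyped class, for example, held the cycling panel at 2201 and 1600 CPM and Retnla at 338 and 771 CPM. Of the 43 members 17 were above and 26 below 1 at equal weights, and 39 lay between 0.9 and 1.1. The shares of all genes at equal weights were not computed, so these counts only describe the members. At equal weights Psmb10 had a ratio of 1.08 and Psme1 of 1.06, both nearer to 1 than over all cells. Psmf1 was at 1.1 and Psme2b at 0.857. Monocytes and macrophages, the classes where Psmb10 was highest, made up more of the IL31RAKO cells. Psmb10 was higher in IL31RAKO within 9 of the 13 classes and lower in 4. The part of the cell mix in its all-cell ratio was not tested.

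**Figure D2:**
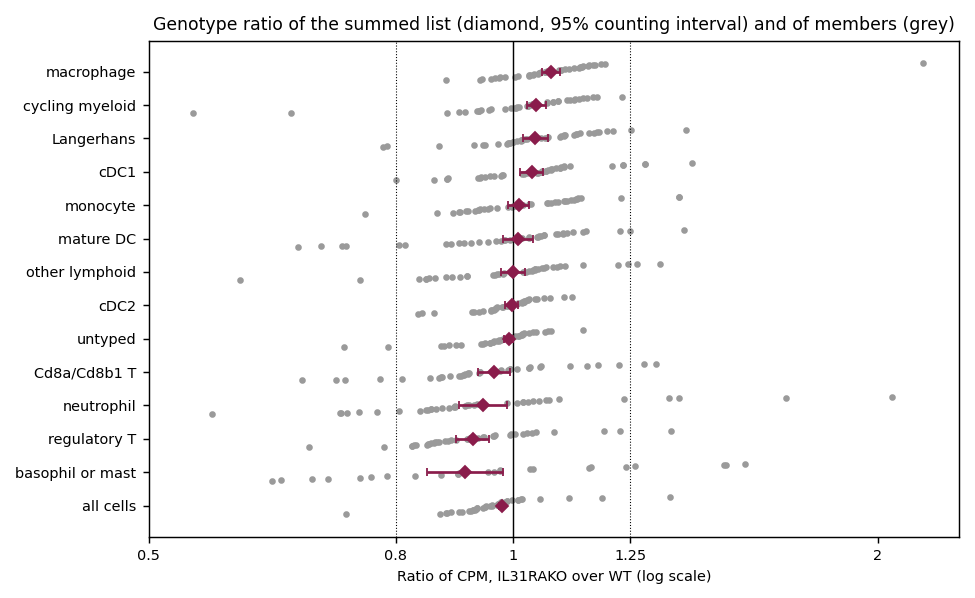
Ratio of CPM, IL31RAKO over WT, on a log axis for all cells and for each marker gate with 100 or more cells in each library. Diamonds with bars are the summed list with its 95% counting interval, grey points are members with 50 or more UMIs in that gate, and dotted lines are the fold limits. The diamonds run from 0.912 in the basophil or mast gate to 1.07 in the macrophage gate, and grey points spread most in the gates with the fewest UMIs.

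Within cell types the list was a few percent higher in IL31RAKO in 4 myeloid gates and lower in 4 other gates. Of these 8, cDC1 and Cd8a/Cd8b1 T crossed 1 with each cell thinned to 1000 UMIs, with intervals that include their ratios at full depth. The macrophage gate had the highest ratio, 5212 CPM in WT and 5603 CPM in IL31RAKO, 1.07 [1.06, 1.09], and 33 of its 41 measured members were higher, against 55.1% of all genes. There the alpha ring was at 1.12 [1.08, 1.16] and the beta ring at 1.07 [1.04, 1.1], while the activators were at 1.01 [0.960, 1.07]. Cells of this gate were deeper in IL31RAKO (medians of 2325 and 3274 UMIs), as were those of the cDC1 gate (3780.5 and 6678 UMIs). Levels were therefore also taken with each cell thinned to 1000 UMIs, an alternative chosen after seeing the data. Thinning leaves out cells under 1000 UMIs, weights the others alike and does not change a cell's expected share. It also keeps fewer UMIs, which widens the intervals, and the part of depth in the ratios was not tested. The thinned macrophages were at 4958 and 5401 CPM, 1.09 [1.05, 1.13], and the thinned cDC1 at 5974 and 5950 CPM, 0.996 [0.940, 1.06]. The intervals of the cycling myeloid gate (1.01 [0.954, 1.07]) and of the Langerhans gate (1.04 [0.974, 1.12]), wider with fewer UMIs, then also included 1. The Langerhans ratio itself stayed at 1.04. In the macrophage gate, 1 of 41 members was past the fold limit, against 25.3% of all genes. It was Psmf1, the PI31 inhibitor, with 22 UMIs (7.13 CPM) in WT and 160 UMIs (15.5 CPM) in IL31RAKO, 2.18 [1.39, 3.58].

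The cycling myeloid gate was at 1.04 [1.03, 1.06], with 29 of 42 members higher, against 51.6% of all genes, and 2 past the fold limit, against 24.0% of all genes. The lowest there was Psme4, with 78 UMIs (26.4 CPM) in WT and 58 UMIs (14.4 CPM) in IL31RAKO, 0.544 [0.381, 0.775]. In the conventional DC type 1 (cDC1) gate the list was at 1.04 [1.01, 1.06] at the cells' own depth, and 3 of 41 members were past the fold limit, against 26.4% of all genes. These cells had more Psmd14 in IL31RAKO (71.7 and 101 CPM, 1.41 [1.15, 1.72]) and more Psmb7 (129 and 166 CPM, 1.28 [1.11, 1.5]). In the Langerhans gate the list was at 1.04 [1.02, 1.07], with 28 of 41 members higher, against 49.6% of all genes, and 4 past the fold limit, against 28.5% of all genes. All 4 of these (Psmd5, Psmf1, Psmd9 and Psmd10) had intervals that include 1.

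The regulatory T gate had the lowest ratio of the T gates with 100 or more cells in each library, 6520 and 6038 CPM, 0.926 [0.897, 0.956], and 30 of its 39 measured members were lower, where 49.5% of all genes were higher. With cells thinned to 1000 UMIs it was at 0.913 [0.866, 0.962]. Of the 39, 3 were past the fold limit, against 30.6% of all genes, and Psmb6 was lower with an interval below 1, at 253 and 198 CPM, 0.782 [0.658, 0.927]. In the Cd8a/Cd8b1 T gate the list was at 0.965 [0.936, 0.994], but at 1.00 [0.948, 1.06] with cells thinned, and 6 of 39 members were past the fold limit, against 28.5% of all genes. Lower there were the lid subunit Psmd6 (93.9 and 62.8 CPM, 0.669 [0.493, 0.898]) and the ATPase Psmc5 (150 and 107 CPM, 0.714 [0.566, 0.896]), and higher was Psme1 (197 and 252 CPM, 1.28 [1.09, 1.51]). In the other lymphoid cells the list was at 1.00 [0.977, 1.02] with 6461 CPM in each library, and 4 of 41 members were past the fold limit, against 26.0% of all genes. These were Psmc4 (102 and 129 CPM, 1.26 [1.06, 1.5]), Psme3 (45.7 and 60.4 CPM, 1.32 [1.02, 1.71]), Psmd10 (53.7 and 40.1 CPM, 0.747 [0.555, 0.993]) and Psme2b (23.8 and 14.2 CPM, 0.595 [0.359, 0.952]).

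The neutrophil gate, where cells were shallow (medians of 1217 and 1298.5 UMIs), had a list ratio of 0.944 [0.903, 0.988]. Of its 39 measured members 14 were higher and 25 lower, where 40.6% of all genes were higher. The log2 ratio of the list was -0.083, near the median of -0.093 over all genes of this gate. Thinned to 1000 UMIs, which left 223 and 1056 cells, the list was at 0.858 [0.799, 0.922]. In this gate 10 of 39 members were past the fold limit, against 42.6% of all genes. Psmb10 had 21 UMIs (40.4 CPM) in WT and 181 UMIs (67.9 CPM) in IL31RAKO, 1.68 [1.07, 2.78]. Psme1 was at 131 and 180 CPM, 1.37 [1.06, 1.80], whereas Psme2 was at 200 and 183 CPM, 0.916 [0.740, 1.14]. Psmd10 had 9 UMIs (17.3 CPM) and 95 UMIs (35.6 CPM), 2.06 [1.04, 4.63]. In the basophil or mast gate, with 116 and 179 cells, the list was at 0.912 [0.848, 0.981], and at 0.925 [0.817, 1.05] with cells thinned. There 11 of 25 members were past the fold limit, against 38.3% of all genes, and only Psma7 (360 and 246 CPM, 0.682 [0.524, 0.888]) and Psmd4 (154 and 99.0 CPM, 0.643 [0.424, 0.976]) had intervals apart from 1.

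In the remaining 4 classes the interval of the list ratio included 1, although thinned untyped cells were at 1.02, with an interval just above 1. In the conventional DC type 2 (cDC2) gate the ratio was 0.997 [0.984, 1.01] and 0 of 41 members were past the fold limit, against 18.7% of all genes. Monocytes were at 1.01 [0.99, 1.03] with 3 of 41 past the limit, against 26.3% of all genes, among them the ATPase Psmc6 (66.1 and 90.6 CPM, 1.37 [1.13, 1.67]) and the lid subunit Psmd11 (55.5 and 76.1 CPM, 1.37 [1.11, 1.70]). Mature DC were at 1.01 [0.982, 1.04] with 5 of 40 past the limit, against 30.8% of all genes, and Psmd10 was at 71.8 and 47.7 CPM, 0.665 [0.485, 0.911]. The untyped cells were at 0.992 [0.983, 1.00] with 2 of 42 past the limit, against 20.0% of all genes, namely Psme2b (13.8 and 10.9 CPM, 0.789) and Psmc3ip (13.7 and 9.93 CPM, 0.725).

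**Figure D3:**
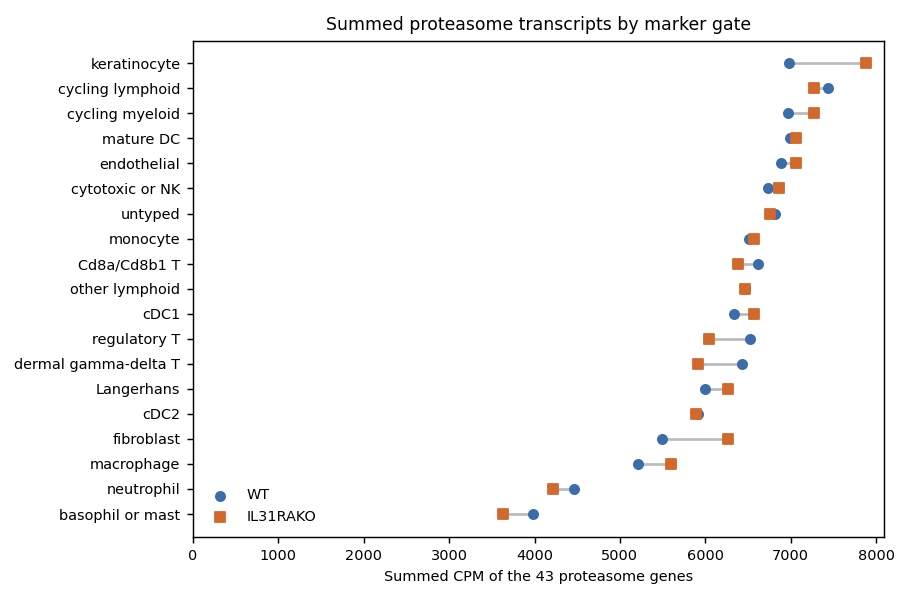
Summed CPM of the 43 genes, on an axis that starts at 0, in the 19 marker gates with 50 or more cells in each library. Circles are WT and squares IL31RAKO, 1 library each, joined by a grey line. The basophil or mast gate (3977 and 3627 CPM) and the neutrophil gate (4467 and 4217 CPM) are lowest, and the cycling and mature DC gates are near the top.

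The level of the list differed more between cell types than between genotypes. In WT it ran from 3977 CPM in the basophil or mast gate to 7440 CPM in cycling lymphoid cells, 1.87 times as high. In IL31RAKO it ran from 3627 CPM in the same lowest gate to 7882 CPM in the keratinocyte gate, 2.17 times as high. Cycling myeloid cells (6967 and 7279 CPM) and mature DC (6995 and 7062 CPM) were near the top in both libraries, and neutrophils (4467 and 4217 CPM) and macrophages (5212 and 5603 CPM) near the bottom. The order of the 19 classes had a Spearman rho of 0.911 and a Pearson r of 0.946 between the libraries, as a description. The middle of the order, from the untyped cells at 6817 and 6760 CPM to the cDC1 gate at 6338 and 6567 CPM, was not separated: the libraries moved neighbours past each other. Free RNA was at 7124 and 7274 CPM, above all but 2 gates in IL31RAKO and all but 1 in WT, and its part in the levels was not tested.

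**Figure D4:**
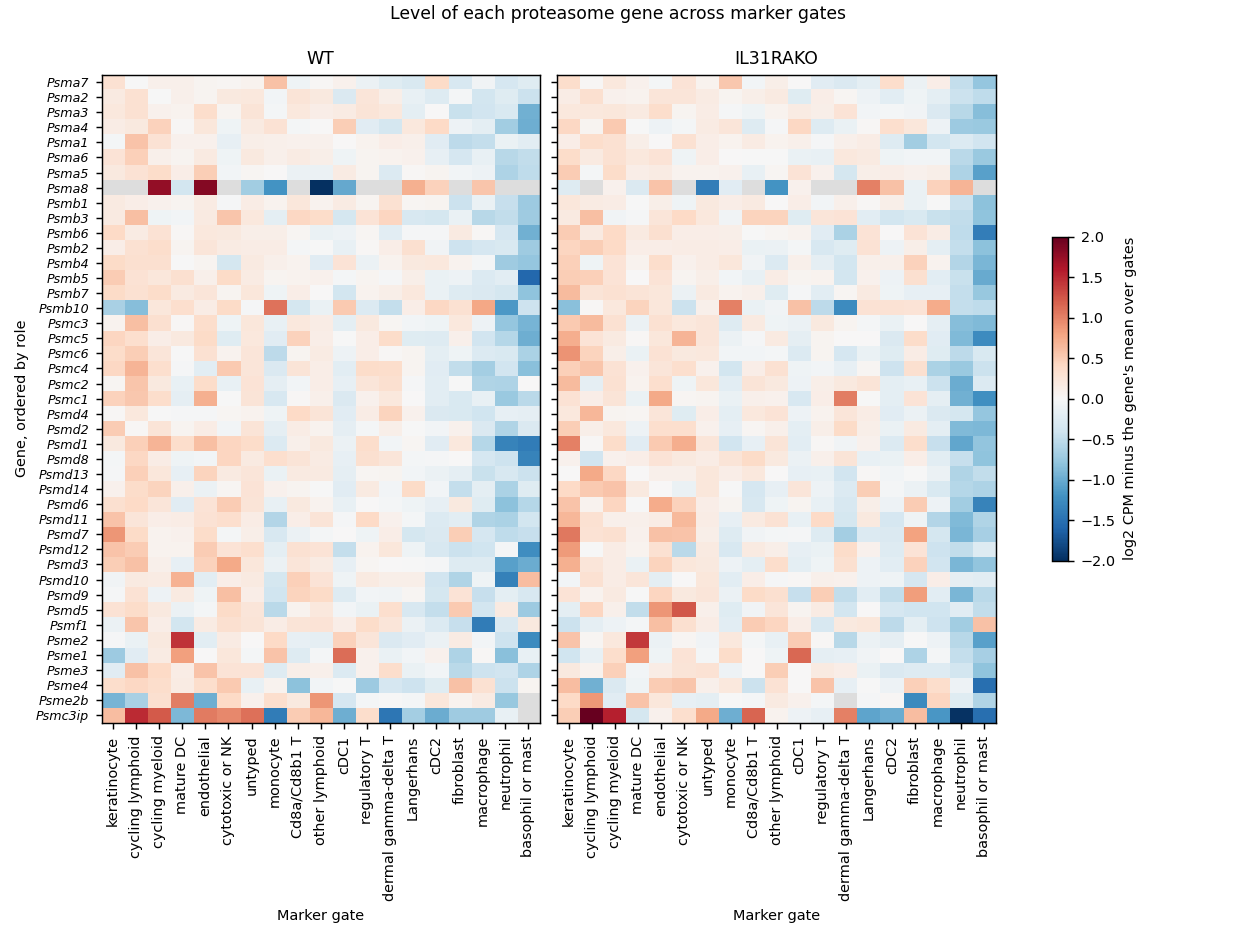
Level of each of the 43 genes (rows, ordered by role) across the 19 marker gates (columns, ordered by the summed list), as log2 CPM minus that gene's mean over gates, WT on the left and IL31RAKO on the right. Grey marks a gate with 0 UMIs, and colours stop at -2 and 2. The 2 right-hand columns, neutrophil and basophil or mast, are blue for most rows, whereas Psmb10, Psme1 and Psme2 have red cells in monocyte, cDC1 and mature DC.

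Most core subunits followed the rest of the list across the 19 classes. As a measure of likeness, the Pearson r of each member's log2 CPM with that of all other members together was averaged over the libraries, as a description of classes that share a library and depth. It was highest for Psma6 (0.892), Psma3 (0.892), Psmb7 (0.871), Psmb1 (0.871) and Psmb5 (0.869), all of them core subunits. Psma3, for example, was at 148 and 171 CPM in the basophil or mast gate and at 367 and 392 CPM in the endothelial gate. It was lowest for Psma8 (0.122), Psmb10 (0.155) and Psmf1 (0.206), of which Psma8 and Psmf1 rest on few UMIs in many classes.

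Psmb10, Psme1 and Psme2 were each highest in the same class in both libraries, which was not particular to them. Psma3 (endothelial gate), Psmb5 and Psmb7 (keratinocyte gate) and Psmb3 (cycling lymphoid gate), among others, also kept their highest class. So did Psma7, which shared monocytes with Psmb10, at 635 and 607 CPM. Psmb10 was highest in monocytes, at 191 and 190 CPM, followed by macrophages at 154 and 158 CPM, and was at 57.4 and 53.0 CPM in the keratinocyte gate. Psme1 (mm10 chromosome 14, 55578123 to 55581529) was at 506 and 554 CPM in the cDC1 gate and at 416 and 441 CPM in mature DC, against 131 and 180 CPM in neutrophils. Psme2, which lies beside it (chromosome 14, 55587441 to 55591113), was at 723 and 719 CPM in mature DC and at 366 and 383 CPM in cDC1. The PA28 pair over the 20S core genes, as UMIs, was 0.287 and 0.288 in mature DC and 0.229 and 0.240 in cDC1, against 0.133 and 0.143 over all cells. Lymphoid markers were also in the mature DC gate, where that panel summed to 1700 and 1943 CPM, and their part in the level of Psme2 was not tested. In the other lymphoid cells that panel was at 11216 and 13336 CPM and Psme2 at 235 and 244 CPM.

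**Figure D5:**
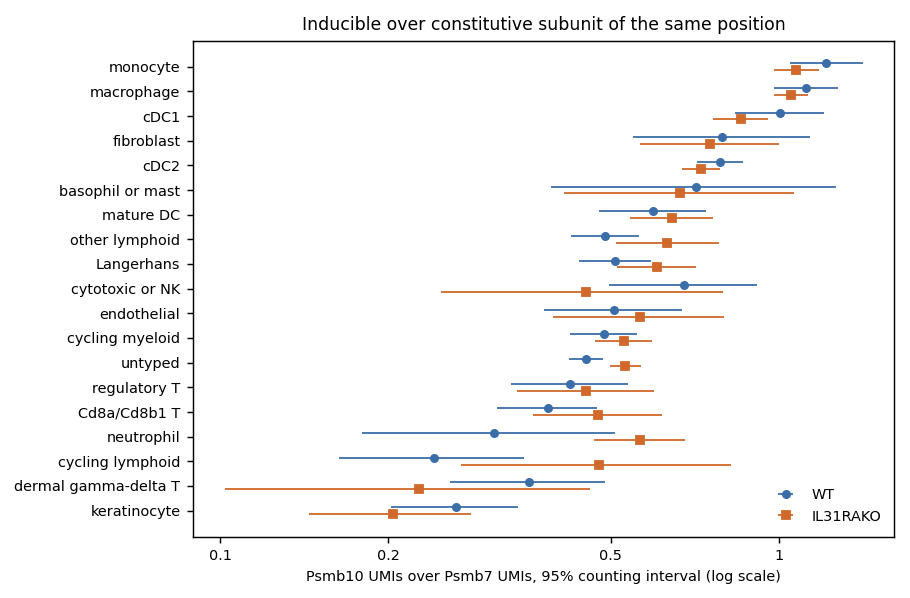
UMIs of Psmb10 over UMIs of Psmb7 in the 19 marker gates, on a log axis, with 95% counting intervals. Circles are WT and squares IL31RAKO, 1 library each. Monocytes (1.22 and 1.07) and macrophages (1.12 and 1.05) are highest and the keratinocyte gate (0.264 and 0.204) is among the lowest in both libraries.

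The ratio of the inducible Psmb10 to Psmb7, the constitutive subunit it replaces, ordered the cell types in a similar way in both libraries. It was 1.22 [1.05, 1.41] in WT and 1.07 [0.979, 1.18] in IL31RAKO monocytes, 1.12 and 1.05 in macrophages, 1.00 and 0.855 in cDC1 and 0.785 and 0.726 in cDC2. Langerhans cells were at 0.509 and 0.605, Cd8a/Cd8b1 T cells at 0.386 and 0.475, and regulatory T cells at 0.424 and 0.452. Over all cells the ratio was 0.578 [0.558, 0.599] in WT and 0.705 [0.684, 0.726] in IL31RAKO. The 4 myeloid gates with the highest ratios were all lower in IL31RAKO, with intervals that overlap, and monocytes and macrophages made up more of the IL31RAKO cells. The untyped cells went the other way, 0.452 [0.422, 0.485] and 0.532 [0.499, 0.566], as did other lymphoid cells, 0.489 and 0.632. The part of the cell mix in the all-cell ratio was not tested. Without the neutrophil, monocyte and macrophage gates it was 0.521 in WT and 0.599 in IL31RAKO. In neutrophils it was 0.309 [0.180, 0.510] and 0.564 [0.467, 0.679], from 21 and 181 UMIs of Psmb10.

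The 19S genes over the 20S core genes, as summed UMIs, also differed by cell type. The ratio was 0.358 and 0.366 in monocytes, 0.392 and 0.379 in macrophages and 0.384 and 0.379 in cDC2, against 0.463 and 0.458 in Cd8a/Cd8b1 T cells and 0.471 and 0.472 in regulatory T cells. Over all cells it was 0.434 in WT and 0.415 in IL31RAKO.

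A list of 23 interferon-stimulated genes, used as a comparison because Psmb10 and PA28 respond to interferon, was higher in IL31RAKO over all cells, 555 and 650 CPM, 1.17 [1.15, 1.19]. Of its 23 genes 18 were higher, against 33.5% of all genes. In macrophages that list was at 1.27 [1.21, 1.33] while Psmb10 was at 1.03 [0.930, 1.14], Psme1 at 1.03 [0.951, 1.12] and Psme2 at 0.985 [0.909, 1.07]. In neutrophils the list was at 1.33 [1.18, 1.5], Psmb10 at 1.68 and Psme1 at 1.37. In monocytes the interferon list was lower, 0.819 [0.783, 0.857], with Psmb10 at 0.999 [0.888, 1.13], Psme1 at 0.935 [0.856, 1.02] and Psme2 at 0.891 [0.816, 0.975]. Across the 19 classes Psmb10 had a Pearson r with the interferon list of 0.494 in WT and 0.541 in IL31RAKO. These were the highest of the 43 members in each library, given as a description. The PA28 genes were lower, Psme1 at 0.390 and 0.161 and Psme2 at 0.260 and 0.119, and Psme4 was at 0.212 and 0.452.

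Most genes of the wider ubiquitin and proteasome pathway stayed within the fold limit over all cells, as most subunits did. Of 36 listed genes 33 had 50 or more UMIs. Of these, 8 were higher and 25 lower, where 33.5% of all genes were higher. In each direction 1 was past the fold limit, against 31.0% of all genes in both directions together. Pomp, which matures the 20S core, was at 448 and 441 CPM, 0.985 [0.967, 1.00], and Akirin2, which carries proteasomes into the nucleus, at 73.7 and 66.7 CPM. Shfm1, a small lid subunit outside the naming rule, was at 798 and 903 CPM, 1.13 [1.12, 1.15], and at 1.02 with the class weights alike. The ubiquitin genes Rps27a (3564 and 3630 CPM) and Ubb (3072 and 3012 CPM) had ratios of 1.02 and 0.981. Nfe2l1, the gene of the factor NRF1 that raises proteasome genes when the proteasome is blocked, was at 30.2 and 26.1 CPM, 0.864 [0.804, 0.929]. Nfe2l2, which encodes NRF2, was at 63.8 and 80.4 CPM, 1.26 [1.21, 1.32], but at 0.965 with the class weights alike. By class its ratio ran from 0.809 in the neutrophil gate to 1.40 in the Cd8a/Cd8b1 T gate. Mafk, a partner of both factors, was at 14.6 and 11.6 CPM, 0.798 [0.717, 0.888], and at 0.868 with the weights alike. For comparison, the 7 measured CCT chaperonin genes summed to 0.938 [0.927, 0.949] and the cytosolic ribosomal protein genes to 0.959 [0.958, 0.960].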

How the data were processed

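Raw UMI counts per gene and barcode were deposited by the authors with no normalisation and no cell filter, and Cell Ranger 3.1, Seurat 3.2.2 and mm10 are named in the submitters' processing notes, with no role given. The libraries held 57000499 WT and 71333292 IL31RAKO UMIs. Barcodes with 500 or more UMIs, 250 or more genes and under 10% mitochondrial UMIs were kept as cells. Doublets scored by Scrublet in scanpy 1.11.5 (9.54% of WT and 11.7% of IL31RAKO cells) were kept, and removed as an alternative. Cells were gated by marker panels with no clustering. UMIs were summed by gate and library, scaled to CPM, and given as ratios with exact conditional binomial 95% intervals (scipy 1.17.1), tested on simulated counts. Genotypes were compared in gates of 100 or more cells in each library.

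Named were all members by role, the highest and lowest over all cells and in likeness, up to 2 each way in a gate by the bound nearest to 1, and the catalytic and PA28 genes. Values named beyond that rule were chosen after they were seen. The genes and lists were chosen with earlier results of these data known.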

Additional observations from a re-analysis of the deposited data

Results flagged for a closer look

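The list ratio lay above 1 in some cell types and below 1 in others, with counting intervals that exclude 1. It was 1.07 in the macrophage gate, 1.04 in the cycling myeloid gate, 1.04 in the Langerhans gate and 1.04 in the cDC1 gate. It was 0.912 in the basophil or mast gate, 0.926 in the regulatory T gate, 0.944 in the neutrophil gate and 0.965 in the Cd8a/Cd8b1 T gate. All genes were also lower by their median log2 ratio in neutrophils (-0.093, list -0.083) and in the basophil or mast gate (-0.089, list -0.133). With each cell thinned to 1000 UMIs, chosen after seeing the data, the cDC1 gate (0.996) and the Cd8a/Cd8b1 T gate (1.00, from 6435 and 6442 CPM) crossed 1. The cycling myeloid gate (1.01), the Langerhans gate (1.04) and the basophil or mast gate (0.925) had intervals that include 1. Thinning keeps fewer UMIs, which widens intervals, and the part of depth was not tested. The macrophage gate (1.09), the regulatory T gate (0.913) and the neutrophil gate (0.858) kept intervals apart from 1. With 1 library per genotype the difference between these cell types was not tested.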

How the results depend on the processing

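No paired analysis was possible because each genotype was 1 library, and no replicate could be left out. Over all cells, the list ratio of 0.978 was 0.973 at under 5% mitochondrial UMIs, 0.959 without mitochondrial, ribosomal and Malat1 UMIs, 0.973 with free RNA subtracted and 0.953 as a mean over cells. It passed 1 when the median ratio of all genes was scaled to 1 (1.05) and, as 1.00, without the neutrophil, monocyte and macrophage gates, an alternative chosen after seeing the data. Median scaling also turned the members' median log2 ratio to 0.043, and, of the members whose own interval excluded 1 below it, the ratios of Psma1 (1.02), Psma6 (1.03), Psmb1 (1.03), Psmb5 (1.03), Psmb7 (1.04), Psmc5 (1.01), Psmd4 (1.00) and Psmd11 (1.00). Of members, 10 were past 1.1-fold, 0 past 1.5-fold, and 0 past the fold limit without those 3 gates. The shares of all genes under these alternatives were not computed.

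By class, leaving out ribosomal, mitochondrial and Malat1 UMIs gave 1.02 in the Langerhans gate, 0.984 in cDC2 and 1.05 in macrophages. Median scaling gave 1.02 in cDC2, 1.05 in macrophages, 1.01 in untyped cells and, across 1, 1.01 in neutrophils. Means over cells gave 1.01 in cDC2, 1.1 in macrophages, 0.902 in neutrophils and 1.00 in untyped cells. Removing doublets gave 1.02 in cycling myeloid cells and 0.826 in neutrophils, and leaving out cells of 2 lineages 1.07 in cDC1. A gate at 1 times free RNA, chosen after seeing the data, gave 0.997 in Cd8a/Cd8b1 T cells, 0.958 in regulatory T cells, 1.02 in untyped cells and 0.967 for Psmb10 in untyped cells. With the main gates Psmb10 was higher in IL31RAKO untyped cells, at 88.7 and 101 CPM, so that last value lay across 1. Cells thinned to 1000 UMIs, also chosen after seeing the data, gave 0.996 in cDC1 and 1.00 in Cd8a/Cd8b1 T cells, both across 1, 1.01 in cycling myeloid cells, 0.858 in neutrophils and 1.02 in untyped cells. The ratio of highest to lowest class was 1.75 (WT) and 1.97 (IL31RAKO) with cells thinned to 1000 UMIs, and 2.60 in IL31RAKO without ribosomal, mitochondrial and Malat1 UMIs. The causes were not tested. Of the class list ratios, 119 of 141 alternatives moved by less than the counting interval.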
